A study of Mus musculus with 4 samples.

Results

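Human basophils and mast cells were examined by single-cell RNA sequencing (scRNAseq) of human CD45+ cells sorted from huNSG-SGM3 mice, which are immunodeficient mice engrafted with human haematopoietic stem cells. The 4 libraries, 1 per condition, held blood of naïve mice without surgery, blood of sham mice at 7 days after a T9 laminectomy, blood of SCI mice at 7 days after a T9 spinal cord injury, and the injured spinal cord of SCI mice. All hosts, naïve ones included, carried the Prkdcscid and IL2rgtm1Wjl alleles and transgenes for human IL3, CSF2 and KITLG under the CMV promoter, so that interleukin-3, GM-CSF and stem cell factor were supplied in every group. The hosts were labelled as 15 weeks old. Naïve and sham hosts were male and the SCI hosts were males and females pooled, so host sex and injury cannot be told apart. Each library was a pool of animals, so there was 1 sample per condition, no test between conditions was possible, and every interval given here is a 95% interval that covers counting error only.

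A barcode was taken as a basophil or mast cell when more than 50% of its unique molecular identifiers (UMIs, each standing for 1 captured transcript) were human, at least 500 human genes were detected, the T cell genes CD3D, CD3E and CD3G and the B cell gene MS4A1 had no UMI, and at least 3 of 7 genes (MS4A2, TPSAB1, TPSB2, HDC, GATA2, CPA3 and FCER1A) had a UMI. This gave 313 cells among 17842 human barcodes with at least 500 genes. The naïve, sham and SCI blood libraries held 78, 105 and 115 of them, and the SCI cord library 15. The cells were chosen by their own transcripts, so their levels of these genes, and of any gene in contrast to other cell types, are descriptions. Exactly 3 of the 7 genes were detected in 6, 4, 5 and 0 of the cells of naïve blood, sham blood, SCI blood and SCI cord, all 7 were detected in 13, 43, 32 and 9, and 2, 0, 2 and 1 barcodes with 2 of the genes fell just outside.

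Basophils and mast cells are granulocytes of related origin that carry the high-affinity IgE receptor. Cross-linking of that receptor by antigen releases histamine, proteases and heparin from granules, and starts the synthesis of prostaglandins, leukotrienes and cytokines such as IL-4 and IL-13. Basophils mature in the marrow, circulate, depend on IL-3 and carry CCR3. Mast cells depend on stem cell factor and its receptor KIT, mature in tissues and store tryptases, chymase, cathepsin G and carboxypeptidase A3.

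The cells had a median of 3069, 4748, 3785 and 7680 UMIs in naïve blood, sham blood, SCI blood and SCI cord, somewhat below the other human barcodes of the same libraries (3694, 5254, 4662 and 9272). The SCI cord library had only 127 human barcodes with at least 500 genes, against 4897 to 6592 in the blood libraries. The median mitochondrial share of UMIs was 5.0% to 6.72% in blood and 10.5% in cord. A doublet caller marked 4, 4 and 2 of the cells of naïve, sham and SCI blood. It was not run on the cord library, which had too few human barcodes (138), so cord cells were not screened for doublets. At most 16 barcode sequences were shared by any pair of libraries, and none of them was a basophil or mast cell. Between 22 and 27 further barcodes per blood library, and 3 in cord, had at least 3 of the 7 genes but also a CD3 or MS4A1 UMI and were left out.

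The genes that set these cells apart most from other human barcodes were granule, IgE receptor and lineage genes. MS4A3, a membrane protein of basophils and their progenitors, was at 1345, 1461, 1402 and 982 counts per 1000000 (CPM, summed over the cells of a library without ribosomal and mitochondrial genes) in naïve blood, sham blood, SCI blood and SCI cord, and at 4.33, 10.1, 7.32 and 0 CPM in all other human barcodes. KIT, the receptor for the transgenic stem cell factor, was at 247, 328, 346 and 346 CPM. The vitamin B12 binding protein TCN1 was at 3833, 4644, 3388 and 2590 CPM, and the keratin KRT19 at 247, 233, 481 and 337 CPM. Other leading genes were SLC18A2, which loads histamine into granules (333, 404, 423 and 748 CPM), the ectonucleotidase ENPP3, the activation marker CD203c of both lineages (134, 208, 118 and 159 CPM), and GCSAML and SLC45A3, each between 280 and 552 CPM in every library. All 4 marker genes of the label, MS4A2, TPSAB1, HDC and CPA3, had UMIs in every library, a description only, because they belong to the rule.

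The IgE receptor, histamine and lineage factor genes were found in most cells of every library. MS4A2, the beta chain of the IgE receptor, had a median of 10, 17, 11 and 15 UMIs per cell in naïve blood, sham blood, SCI blood and SCI cord, and a maximum of 28, 48, 58 and 85. After each cell was thinned to 1000 UMIs to remove differences in depth, an MS4A2 UMI was found in 84.6%, 95.2%, 91.3% and 86.7% of the cells (94.9%, 99.0%, 99.1% and 100% without thinning). In T cells of the same libraries, which should lack the gene and had median depths of 3589, 5166, 4630 and 8087 UMIs, the thinned share was 0.227%, 0.259%, 0.190% and 1.37%. FCER1A, the alpha chain that binds IgE, was found in 66.7%, 78.1%, 54.8% and 46.7% of the thinned cells, and HDC, which makes histamine from histidine, in 75.6%, 81.0%, 80.9% and 66.7%. GATA2, a transcription factor of both lineages, was found in 65.4%, 72.4%, 69.6% and 53.3%. Without thinning FCER1A was found in 80.0% to 94.3% of the cells of a library, HDC in 97.1% to 100% and GATA2 in 86.7% to 96.2%.

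The mast cell proteases were found in only some of the cells. CPA3, carboxypeptidase A3, was found in 41.0%, 57.1%, 40.0% and 93.3% of the thinned cells of naïve blood, sham blood, SCI blood and SCI cord (56.4%, 83.8%, 60.0% and 100% without thinning). The tryptase gene TPSAB1 was found in 23.1%, 39.0%, 35.7% and 73.3%, its near-identical neighbour TPSB2 in 23.1%, 43.8%, 34.8% and 86.7%, and CTSG, the serine protease cathepsin G, in 16.7%, 39.0%, 28.7% and 66.7%. Without thinning the shares were 24.4%, 49.5%, 40.9% and 80.0% for TPSAB1 and 21.8%, 43.8%, 33.0% and 80.0% for CTSG. The division of reads between TPSAB1 and TPSB2 is uncertain because their sequences are so alike. In thinned T cells these 4 genes were found in at most 0.130% of cells in blood and in 1.37% to 2.74% in cord. Among the cells, the number of CTSG UMIs ranged from 0 to 97, 126, 114 and 181, with a median of 0 in each blood library and 24 in cord.

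The basophil genes CCR3 and CLC were found mostly in cells without CTSG. CCR3, the eotaxin receptor, was found in 33.3%, 24.8% and 35.7% of the thinned cells of naïve, sham and SCI blood (60.3%, 55.2% and 56.5% without thinning) and in 1 of 15 in cord. CLC, the Charcot-Leyden crystal protein galectin-10, was found in 57.7%, 45.7%, 38.3% and 26.7% of the thinned cells (65.4%, 58.1%, 56.5% and 40.0% without thinning). In thinned T cells both genes were found in at most 0.273% in blood, and CLC in 4.11% in cord. Over all 313 cells, a CCR3 UMI was found in 5 of the 113 cells with a CTSG UMI (4.42%) and in 83.5% of the cells without one. CLC was found in 17 of the 113 (15.0%) and in 83.0% of the rest. CMA1, mast cell chymase, was found in 64 cells, and only 1 of them had a CCR3 UMI (1.56%, against 68.7% of the other cells). KIT was less exclusive, since 78 of the 174 cells with a KIT UMI also had one of CCR3 (44.8%). MS4A3 was found in 80 of the 113 cells with CTSG (70.8%) and in 94.0% of those without.

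**Figure D1:**
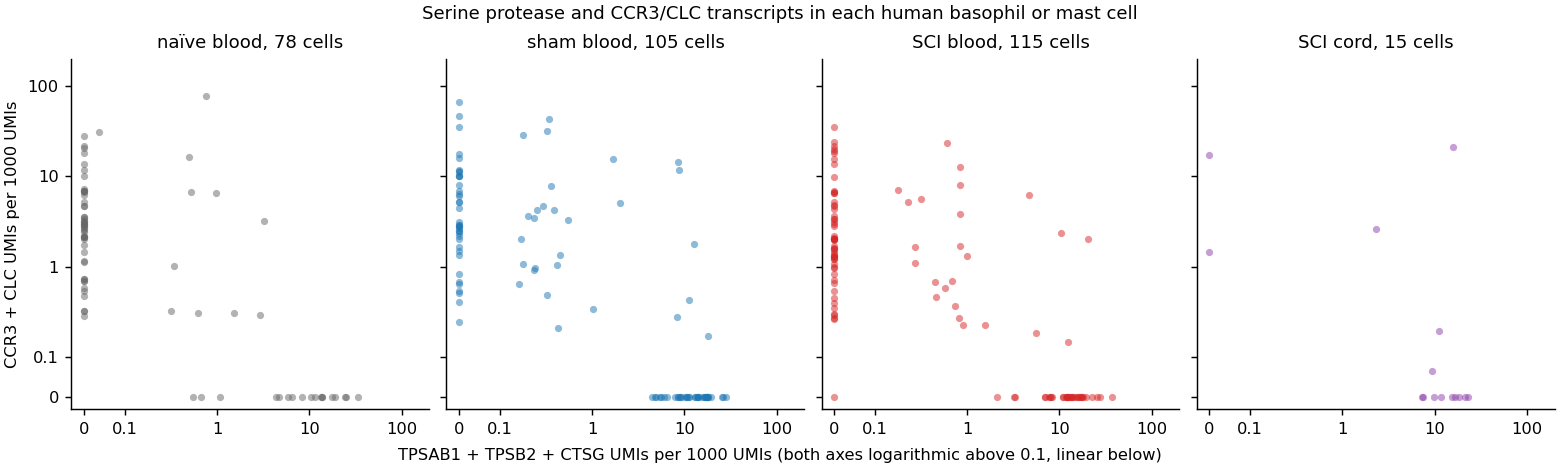
Each point is 1 human basophil or mast cell, placed by its UMIs of TPSAB1, TPSB2 and CTSG together (x axis) and of CCR3 and CLC together (y axis), both per 1000 UMIs of the cell, for the libraries of naïve blood, sham blood, SCI blood and SCI cord (78, 105, 115 and 15 cells). Most cells lie along one of the axes, with proteases and no CCR3 or CLC, or with CCR3 or CLC and no proteases. Others carry both, and a CLC UMI was found in 34 of the 130 cells with a TPSAB1 UMI (26.2%).

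The cells were therefore described in 2 ranges. Cells with at least 3 UMIs over TPSAB1, TPSB2 and CTSG were called protease-high and the others protease-low. These are ranges cut from counts, not cell types. Protease-high cells numbered 22, 49, 49 and 13 in naïve blood, sham blood, SCI blood and SCI cord. Near the cut lay 7, 17, 9 and 0 cells with 1 or 2 protease UMIs and 5, 3, 8 and 0 cells with 3 to 5, while the highest cell of each library had 163, 196, 175 and 330. In each blood library protease-high cells were the deeper range. The median was 3468, 4971, 4464 and 7680 UMIs in protease-high and 2944, 4547, 3625 and 9394 in protease-low cells. The mean in SCI blood was 5272 UMIs in protease-high cells and 4260 over all cells.

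A UMI of CMA1 or KIT was found in a larger share of protease-high than of protease-low cells in each blood library, and a UMI of CCR3 or CLC in a smaller share. These shares are without thinning, and the part of the greater depth of protease-high cells in them was not tested. CMA1 had a UMI in 31.8%, 53.1%, 51.0% and 46.2% of protease-high cells and in none of the 56, 56, 66 and 2 protease-low cells of naïve blood, sham blood, SCI blood and SCI cord, which by the exact binomial interval allows up to 6.38%, 6.38%, 5.44% and 84.2%. KIT had a UMI in 72.7%, 73.5%, 85.7% and 69.2% of protease-high and in 30.4%, 55.4%, 34.8% and 0% of protease-low cells. CCR3 had a UMI in 13.6%, 12.2%, 12.2% and 0% of protease-high and in 78.6%, 92.9%, 89.4% and 100% of protease-low cells, the last share resting on 2 cells. CLC had a UMI in 18.2%, 20.4%, 28.6% and 30.8% of protease-high and in 83.9%, 91.1%, 77.3% and 100% of protease-low cells. CLC transcripts were not confined to protease-low cells, since protease-high cells held 342 of 1801, 762 of 2672, 257 of 998 and 466 of 678 CLC UMIs, the last in cord. Much of this lay in single cells, and the median CLC count of protease-high cells was 0 in every library. One protease-high cell held 381 CLC UMIs in sham blood, 1 held 118 in SCI blood and 1 held 442 in cord. In naïve blood 1 held 303 UMIs of CCR3 and CLC together. Each of these blood cells had 3 protease UMIs, the lowest number within the cut. Detection of MS4A2, FCER1A, HDC and GATA2 in the 2 ranges is not compared, since a cell without tryptase UMIs needed 3 of the other rule genes to be included. MRGPRX2, the receptor of mature connective tissue mast cells, had no UMI in any of the 4 libraries, which by the same interval allows up to 4.62%, 3.45%, 3.16% and 21.8% of cells with a UMI.

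Most defining genes of other cell types were at or near 0. The myeloid progenitor genes CD34, MPO, ELANE, AZU1 and PRTN3 and the platelet genes PPBP, PF4 and TUBB1 had no UMI. Of the same lists, ITGA2B, the platelet integrin subunit alpha IIb, was at 234, 220, 160 and 243 CPM in naïve blood, sham blood, SCI blood and SCI cord, against 0.787, 1.64, 1.29 and 127 CPM in other human barcodes, and had a UMI in 33.9% to 47.6% of the cells. The progenitor list summed to 32.6 to 93.5 CPM. The summed T cell markers were at 104 to 135 CPM, against 4031 to 4645 CPM in T cells. Per cell, the median of each of the other marker lists was at most 0.241 UMIs per 1000 in either range, against 2.89 to 6.10 for the mast cell markers in protease-high cells and 4.35 to 5.78 for the basophil markers in protease-low cells of the blood libraries. The mast cell list holds CTSG, a gene of the cut, so its value in protease-high cells is a description only. KIT alone had medians of 0.325, 0.284, 0.358 and 0.260 in protease-high cells of naïve blood, sham blood, SCI blood and SCI cord. In naïve blood the monocyte, neutrophil and eosinophil lists summed to 645, 1838 and 662 CPM, above the other libraries, and 74.5%, 92.0% and 79.1% of those UMIs came from 1 cell in each case.

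Across the 3 blood libraries, protease-high and protease-low cells differed by at least 2-fold in the same direction for 41 genes that were higher and 63 that were lower in protease-high cells, of 2167 genes measured in all 3. Within a library, 16.6%, 16.8% and 19.7% of the genes measured were at least 2-fold apart in naïve, sham and SCI blood (5.30%, 6.22% and 7.92% higher, 11.3%, 10.5% and 11.7% lower). The genes named next, other than members of the gene lists, were picked after their values were seen. They are shown with their intervals in the plot of protease-high against protease-low cells.

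Several genes of lysosomes, granules and eicosanoid synthesis were higher in protease-high cells, and others of the same lists were not. Of 10, 14 and 13 measured granule and lysosome genes other than those of the cut, 3, 7 and 6 were at least 2-fold higher and 0, 0 and 1 lower in naïve, sham and SCI blood, with medians of 0.13, 1.01 and 0.94. Of 9, 10 and 10 genes of histamine and eicosanoid synthesis, 4, 5 and 4 were at least 2-fold higher and none lower, with medians of 0.63, 0.89 and 0.40. The medians of all genes were -0.08, -0.10 and -0.12. LGALS3, the sugar-binding protein galectin-3, was at 1751, 1416 and 2557 CPM in protease-high and 120, 75.1 and 57.5 CPM in protease-low cells of naïve, sham and SCI blood. The log2 ratios were 3.83, 4.20 and 5.41. CPA3 was at 2642, 2868 and 1918 CPM against 385, 667 and 246 CPM, a description only, because it belongs to the rule. CTSD, the lysosomal protease cathepsin D, was at 1398, 1425 and 1490 CPM against 253, 247 and 214 CPM. LTC4S, which makes leukotriene C4, was at 507, 619 and 682 CPM against 72.3, 92.8 and 152 CPM. The prostaglandin D2 synthase gene HPGDS was at 1075, 1309 and 1620 CPM against 434, 389 and 727 CPM, and HPGD, which degrades prostaglandins, at 3103, 3326 and 5551 CPM against 692, 1100 and 753 CPM. RGS13, a regulator of G protein signalling known from mast cells, was at 323, 410 and 471 CPM against 42.1, 88.4 and 105 CPM. For all of these genes other than CPA3, the 95% intervals of the log2 ratio lay above 0 in each of the 3 libraries. The lysosomal protease gene CTSS lay below 0 in each library (-0.36, -0.48 and -1.98), and CTSC (-0.41, 0.05 and 0.32), ALOX5 (0.25, -0.28 and -0.32) and ALOX5AP (0.32, -0.19 and -0.59) had no direction shared by the 3.

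CCR3, IL3RA and several cytokine genes were higher in protease-low cells. Of 10, 12 and 12 measured cytokine and chemokine genes, 3, 4 and 5 were at least 2-fold lower and 0, 2 and 0 higher in protease-high cells of naïve, sham and SCI blood, with medians of -0.43, -0.24 and -0.51. Those higher in sham blood were CCL3 (637 CPM in protease-high against 61.8 CPM in protease-low cells) and LIF (196 against 83.9 CPM), which lay above 0 in the other 2 libraries too. CCR3 was at 650, 822 and 1061 CPM in protease-low and 76.8, 44.5 and 67.3 CPM in protease-high cells of naïve, sham and SCI blood, with log2 ratios of -2.95, -4.14 and -3.93. The cytokine gene IL13 was at 295, 495 and 241 CPM against 30.7, 44.5 and 86.5 CPM. IL3RA, the alpha chain of the receptor for the transgenic IL-3, was at 301, 331 and 335 CPM against 76.8, 107 and 76.9 CPM. The chemokine CCL5 (446, 618 and 732 against 61.5, 258 and 135 CPM), lymphotoxin beta LTB (488, 521 and 387 against 108, 71.2 and 86.5 CPM) and the CD200 receptor relative CD200R1L (367, 521 and 335 against 108, 35.6 and 57.7 CPM) were also higher in protease-low cells of each blood library. The levels of the IgE receptor genes are a description only, because both genes belong to the rule. MS4A2 was at 4087, 4235 and 3677 CPM in protease-high and 3281, 3958 and 3451 CPM in protease-low cells, and FCER1A at 2427, 2244 and 1591 against 1794, 2748 and 1380 CPM.

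**Figure D2:**
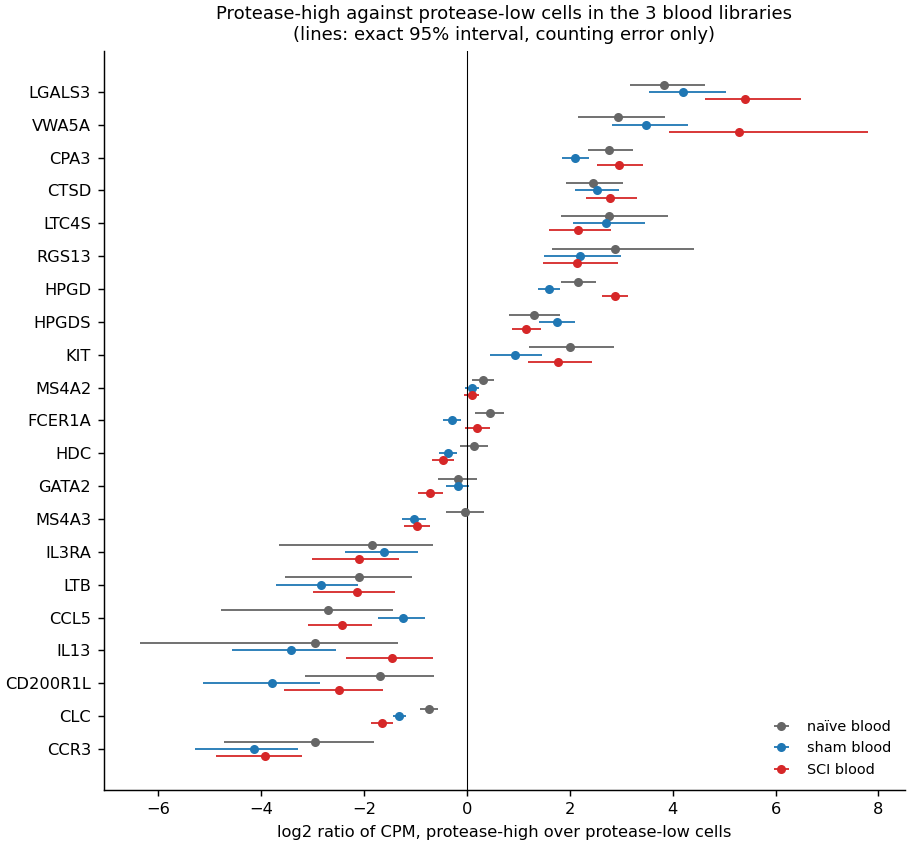
Log2 ratio of CPM in protease-high over protease-low cells (x axis) for 21 genes (y axis) in naïve, sham and SCI blood, with the exact 95% interval as a line. LGALS3, VWA5A, CPA3, CTSD, LTC4S, RGS13, HPGD, HPGDS and KIT lie above 0 in the 3 libraries, IL3RA, LTB, CCL5, IL13, CD200R1L, CLC and CCR3 lie below 0, and MS4A2, FCER1A, HDC and GATA2 lie near 0. CPA3, MS4A2, FCER1A, HDC and GATA2 are genes of the rule, so their values are a description only.

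Basophils and mast cells made up a larger share of human barcodes in the operated than in the naïve blood library, and a still larger share in cord. Of the human barcodes of SCI cord they were 11.8% (95% interval 6.76% to 18.7%, exact Clopper-Pearson as for all shares here). In blood they were 1.18% (0.936% to 1.47%) of the naïve, 2.14% (1.76% to 2.59%) of the sham and 1.85% (1.53% to 2.21%) of the SCI library. The naïve interval lay below the other 3, the sham and SCI blood intervals overlapped, and the cord interval lay above all blood intervals. The cord cells came from papain-digested, perfused tissue and passed a magnetic column before the sort, and blood cells did not, so tissue and preparation cannot be told apart in that comparison.

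Between naïve and operated blood the intervals were apart for the protease-high cells and overlapped for the protease-low cells. In blood, protease-high cells were 0.334% (0.209% to 0.505%) of the human barcodes of the naïve, 1.00% (0.741% to 1.32%) of the sham and 0.787% (0.583% to 1.04%) of the SCI library, and in cord they were 10.2% (5.56% to 16.9%). Protease-low cells were 0.850% (0.642% to 1.10%), 1.14% (0.865% to 1.48%), 1.06% (0.821% to 1.35%) and 1.57% (0.191% to 5.57%), with overlapping intervals in all 4 libraries. Protease-high cells thus made up 28.2% (18.6% to 39.5%), 46.7% (36.9% to 56.7%), 42.6% (33.4% to 52.2%) and 86.7% (59.5% to 98.3%) of the basophils and mast cells, and the cord interval was the only one above those of naïve, sham and SCI blood.

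**Figure D3:**
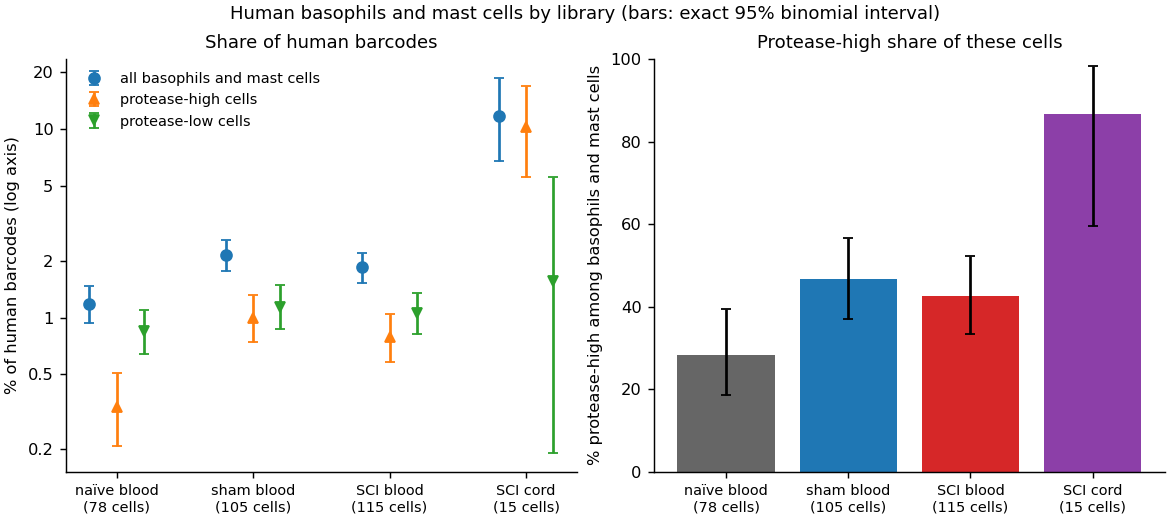
Left, basophils and mast cells, and their protease-high and protease-low ranges, as a percentage of human barcodes with at least 500 genes (log axis) in each library. Right, protease-high cells as a percentage of basophils and mast cells. Lines are exact 95% binomial intervals. The protease-high share was 0.334% in naïve blood against 0.787% to 1.00% in operated blood and 10.2% in cord, while the protease-low intervals overlap in all libraries.

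The sham and naïve blood libraries were compared to see how surgery without cord injury bore on circulating cells. Of 5167 genes with at least 20 UMIs in the 2 libraries together, 123 (2.38%) were at least 2-fold higher and 206 (3.99%) at least 2-fold lower in sham blood, 6.37% together, and the median log2 ratio of all genes was -0.09. With TMM scaling, which rests on a trimmed mean of the gene ratios, that median moved up by 0.16 and the split became 198 higher and 124 lower, so that a direction for all genes together is not given. Because protease-high cells were 46.7% of the cells in sham and 28.2% in naïve blood, each mast cell gene is given here within the protease-high cells too. CTSG, TPSAB1 and TPSB2 define that range, so their ratios within it, here and in the later comparisons, are descriptions only. The cut was a fixed number of UMIs, and the mean depth of protease-high cells had a log2 ratio of 0.61 in sham over naïve blood.

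Mast cell protease genes were higher in the sham than in the naïve library. CTSG was at 1332 CPM in naïve and 3488 CPM in sham blood, a log2 ratio of 1.39 (1.21 to 1.57), and at 0.57 (0.39 to 0.75) in protease-high cells alone. CMA1 was at 56.2 and 188 CPM, a log2 ratio of 1.70 (0.89 to 2.71), and at 0.88 (0.07 to 1.89) in protease-high cells. MITF, the transcription factor of mast cell and melanocyte development, was at 86.5 and 222 CPM (1.33, 0.66 to 2.13, and 0.36, -0.43 to 1.31, in protease-high cells). All 7 measured mast cell markers lay above 0, as did 41.6% of all genes. Of the markers 5 were at least 2-fold higher, as were 2.38% of all genes, and the median was 1.33. The median was 0.34 within protease-high cells, with CTSG among the markers. The 6 measured basophil markers had a median of -0.15 and none was 2-fold apart.

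Chemokine and immediate early genes were also higher in the sham library. The macrophage inflammatory protein genes CCL3 and CCL4, which attract leukocytes, were at 95.2 and 407 CPM in naïve and at 348 and 1328 CPM in sham blood, with log2 ratios of 1.84 (1.22 to 2.59) and 1.70 (1.39 to 2.04). CCL3 had a UMI in only 4 of 78 naïve and 19 of 105 sham cells. Without the top cell of each library CCL3 was at 43.3 and 208 CPM in naïve and sham blood, and CCL4 at 242 and 809 CPM. Within protease-low cells CCL3 had a log2 ratio of -0.34 and CCL4 of 1.90. In T cells of the same libraries CCL4 had a log2 ratio of -1.27 and CCL3, at 2.08 CPM in naïve and 4.07 CPM in sham blood, of 0.95. OSM, oncostatin M of the IL-6 family, was at 138 and 348 CPM (1.31, 0.77 to 1.93), and JUN, a subunit of the AP-1 transcription factor, at 47.6 and 153 CPM (1.63, 0.76 to 2.75). Their T cell ratios were 0.40 and 0.83. All 13 measured immediate early genes lay above 0 (41.6% of all genes did) and 2 of them, FOSB and JUN, by at least 2-fold (2.38% of all genes), with a median of 0.59. In T cells 15 of 19 lay above 0 (46.8% of all genes), with a median of 0.29. Also among the 10 highest genes were the water and glycerol channel AQP3 (43.3 and 193 CPM) and the proton-sensing receptor GPR65 (82.2 and 224 CPM), while IFI27 rested on 8 sham cells. Among the lowest genes, S100A8, S100A9 and EPX were carried almost wholly by 1 naïve cell each, and IGHM, the immunoglobulin heavy chain of B cells, was at 234 CPM in naïve and 6.65 CPM in sham blood, with 2800 and 31.0 CPM in T cells, so the difference was in both.

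SCI and naïve blood differed by at least 2-fold in 168 genes that were higher (3.34%) and 195 that were lower (3.88%) of 5031, 7.22% together, with a median of -0.08 that TMM moved up by 0.11 (226 higher, 138 lower). The mast cell protease genes held the difference seen between sham and naïve blood, with which this comparison shares its control library. CTSG was at 3271 CPM in SCI and 1332 CPM in naïve blood, a log2 ratio of 1.29 (1.12 to 1.48), and at 0.41 (0.23 to 0.60) within protease-high cells, and CMA1 had a log2 ratio of 1.45 (0.61 to 2.47), and of 0.56 (-0.28 to 1.59) within protease-high cells. Of 10 measured genes of histamine and eicosanoid synthesis, 2, HPGD and LTC4S, were at least 2-fold higher and none lower, with a median of 0.19, and of -0.14 within protease-high cells. HPGD was at 1371, 2209 and 3253 CPM in naïve, sham and SCI blood, with a log2 ratio of 1.24 (1.07 to 1.43) of SCI over naïve blood and 0.84 (0.62 to 1.06) within protease-high cells. HPGDS was at 614, 847 and 1192 CPM (0.95, 0.68 to 1.24, and 0.58, 0.22 to 0.98, within protease-high cells), and LTC4S at 195, 355 and 428 CPM (1.13, 0.66 to 1.64, and 0.41, -0.13 to 1.02, within protease-high cells). ALOX5 had a log2 ratio of 0.01 (-0.40 to 0.44) and ALOX5AP of -0.26 (-0.44 to -0.07). In T cells the log2 ratios of HPGD and HPGDS were -0.37 and -1.02.

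CLC was lower in SCI than in naïve blood. The difference in the proteoglycan serglycin, SRGN, which packs granule contents, rested largely on 1 naïve cell. CLC was at 7791, 5925 and 2499 CPM in naïve, sham and SCI blood. Of the 1801 naïve UMIs 819 were in 1 cell, without which naïve blood stood at 4248 CPM. SRGN was at 7397, 5502 and 3448 CPM. Without the top cell of each library it was at 3789 CPM in naïve and 3291 CPM in SCI blood, and its medians per cell were 2.60 and 2.42 UMIs per 1000. Other genes among the lowest were PRSS57, a serine protease of immature granulocytes, at 221 CPM in naïve and 47.6 CPM in SCI blood (-2.19, -3.06 to -1.43), and IFIT1, an interferon-induced antiviral protein, at 389 and 118 CPM (-1.72, -2.27 to -1.20). NFKBIA, the feedback inhibitor of NF-kB, was at 112 CPM in naïve and 273 CPM in SCI blood (1.26, 0.65 to 1.96), while its log2 ratio in T cells was -0.18. JUN was at 190 CPM in SCI blood, a log2 ratio of 1.95 (1.08 to 3.06), and its log2 ratio in T cells was 1.10. CCL4 was at 2387 CPM in SCI blood, of which 1 cell carried 699 of 953 UMIs. Without that cell the level was 636 CPM.

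SCI and sham blood were compared to separate cord injury from surgery. Of 5814 genes, 152 (2.61%) were at least 2-fold higher and 136 (2.34%) at least 2-fold lower in SCI blood, 4.95% together, with a median of 0.03. With ribosomal and mitochondrial genes kept in the totals the split was 115 higher and 172 lower. The shares of basophils and mast cells and of protease-high cells did not differ beyond their intervals, and neither did TPSAB1 (2628 and 2502 CPM in sham and SCI blood, log2 ratio -0.07, -0.19 to 0.05) or CTSG (3488 and 3271 CPM, -0.09, -0.20 to 0.01).

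Interferon-induced genes were lower in the SCI than in the sham library. Such genes encode antiviral effectors and sensors switched on by type I interferon. None of the 30 genes of the type I interferon list lay above 0, against 52.4% of all genes. Of the list 12 were at least 2-fold lower, against 2.34% of all genes, and the median log2 ratio was -0.84. In T cells of the same libraries the median was -0.66, with 5 genes at least 2-fold lower (2.79% of all genes were), so the difference was present in both. It was present in both ranges too, with a median of -1.02 in protease-high cells (14 of 27 genes at least 2-fold lower, against 3.47% of all genes) and -0.67 in protease-low cells (10 of 29, against 3.13% of all genes).

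IFIT1 was at 389, 523, 118 and 56.1 CPM in naïve blood, sham blood, SCI blood and SCI cord, with a log2 ratio of SCI over sham blood of -2.14 (-2.64 to -1.70). It had a UMI in 79 of 105 sham and 32 of 115 SCI blood cells. MX1, a GTPase that blocks viral replication, was at 489, 661, 198 and 103 CPM (-1.73, -2.12 to -1.38), and IFI6 at 1120, 1175, 378 and 692 CPM (-1.63, -1.91 to -1.37). The T cell ratios were -1.39, -1.19 and -0.80, so that for these 3 genes the ratio was further below 0 in basophils and mast cells, and for IFIT1, MX1 and IFI6 the intervals did not reach the T cell values. IFI44L was at 234, 361, 110 and 46.8 CPM (-1.70, -2.23 to -1.23), an interval that held its T cell ratio of -1.35. The interferon-induced gene RSAD2 had a log2 ratio of -1.25 in these cells and in T cells. The ubiquitin-like ISG15 was at 1436, 1322, 714 and 393 CPM (-0.89, -1.10 to -0.68). IFITM2, which restricts viral entry and is also expressed without interferon, was at 2228, 2468, 2409 and 1758 CPM (-0.03, -0.16 to 0.09). Between sham and naïve blood the interferon list had a median of 0.12, with 19 of 30 genes above 0 (41.6% of all genes), and between SCI and naïve blood a median of -0.62, with 4 of 29 above 0 (43.6% of all genes).

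Several cytokine genes were lower in the SCI than in the sham library. OSM was at 138, 348 and 115 CPM in naïve, sham and SCI blood (SCI over sham -1.58, -2.10 to -1.11, and -0.55 in T cells). CCL23, a chemokine for monocytes and T cells, was at 1778, 2189 and 1235 CPM (-0.83, -0.98 to -0.67). IL4, the type 2 cytokine of basophils, was at 90.8, 180 and 77.6 CPM (-1.20, -1.86 to -0.60), with 41 of its 81 sham UMIs in 1 cell and 88.7 CPM without that cell. IL13 was at 221, 271 and 160 CPM (-0.75, -1.22 to -0.31). FCER1A was at 1973, 2497 and 1490 CPM (-0.74, -0.89 to -0.60), at -0.50 (-0.70 to -0.29) in protease-high and -0.99 in protease-low cells, while the beta chain gene MS4A2 had a log2 ratio of -0.20. CPA3 was at 1021, 1763 and 1117 CPM (-0.66, -0.83 to -0.49). CLC was at 5925 and 2499 CPM in sham and SCI blood (-1.24, -1.35 to -1.14), and it was lower in protease-high (-1.46) as in protease-low cells (-1.12). Each of the 7 measured genes of MHC class II presentation lay below 0, while 52.4% of all genes lay above 0. Their median was -0.73, against -0.53 in T cells.

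Genes higher in SCI than in sham blood included MLPH, melanophilin of granule transport (105 CPM in SCI against 37.7 CPM in sham blood), SVIP, an inhibitor of protein degradation at the endoplasmic reticulum (148 against 55.4 CPM), the chromatin protein HMGN3 (290 against 140 CPM) and KRT19 (481 against 233 CPM, log2 ratio 1.04). For KRT19 the log2 ratio was -0.29 in protease-low cells. The chemokine CCL18 rested on 8 SCI blood cells (220 CPM) and 10 sham cells (86.5 CPM). CCL4L2 had 448 of its 460 SCI blood UMIs in 1 cell, and without the top cell of each library its log2 ratio turned from 4.05 to -0.85. The HPGDS log2 ratio of SCI over sham blood was 0.49 (0.30 to 0.69) and that of HPGD 0.56 (0.44 to 0.68).

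The cord and blood libraries of SCI mice were compared to describe the cells that had entered the injured tissue. Of 4181 genes, 237 (5.67%) were at least 2-fold higher and 487 (11.6%) at least 2-fold lower in cord, 17.3% together. With ribosomal and mitochondrial genes kept in the totals the split was 180 higher and 612 lower. In T cells of these libraries 19.9% of genes were 2-fold apart. Only 15 cord cells were available and 86.7% of them were protease-high, against 42.6% in SCI blood. For some genes, values within protease-high cells (13 in cord, 49 in blood) therefore stand beside those of all cells. For genes without such a value, the part of these unlike shares in the ratio was not tested. Transcripts of other cells were more frequent in cord barcodes. T cells of the cord library held 400 CPM of the summed mast cell markers and 1382 CPM of the basophil markers, against 6938 and 7583 CPM in basophils and mast cells, whereas T cells in blood held at most 11.4 and 53.3 CPM. The part of such transcripts in the cord values was not tested, and the T cell ratio is given beside some of the genes and lists only.

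Immediate early genes were higher in the cord than in the SCI blood library. They encode transcription factors and feedback regulators that are induced within minutes of stimulation. Cord cells were digested with papain and blood cells were not, so tissue and digestion cannot be told apart. FOS was at 147, 155, 265 and 1515 CPM in naïve blood, sham blood, SCI blood and SCI cord. The log2 ratio of cord over SCI blood was 2.51 (2.15 to 2.88), 2.51 (2.04 to 3.01) in protease-high cells and 3.11 in T cells, and FOS had a UMI in 11 of 15 cord and 31 of 115 blood cells. JUN was at 47.6, 153, 190 and 1225 CPM (2.68, 2.27 to 3.11, and 1.42 in T cells), FOSB at 17.3, 46.6, 45.1 and 505 CPM (3.46, 2.69 to 4.34, and 2.22 in T cells), and the antiproliferative gene BTG2 at 56.2, 99.8, 120 and 692 CPM (2.52, 1.98 to 3.08, and 1.04 in T cells). Of 16 measured immediate early genes, 14 lay above 0 (42.7% of all genes did) and 11 were at least 2-fold higher (5.67% of all genes). The median was 1.40 in these cells and 2.11 in T cells. KLF2, a quiescence factor of circulating cells, was the only 1 at least 2-fold lower, at 1978 CPM in blood and 944 CPM in cord (-1.06, -1.38 to -0.77, and -1.18 in T cells).

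NF-kB target genes were higher in cord as well. NFKBIA was at 273 CPM in SCI blood and 1262 CPM in cord, with a log2 ratio of 2.21 (1.83 to 2.59), 1.32 (0.87 to 1.77) in protease-high cells and 0.80 in T cells. The survival genes BIRC3 (118 and 458 CPM, 1.96, 1.35 to 2.57) and BCL2A1 (27.5 and 234 CPM, 3.05, 2.01 to 4.26) were higher too, with T cell ratios of 0.92 and 3.15. Of 8 measured genes of the NF-kB list 7 lay above 0 (42.7% of all genes did) and 4 were at least 2-fold higher (5.67% of all genes). The median was 1.41, against 0.81 in T cells.

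**Figure D4:**
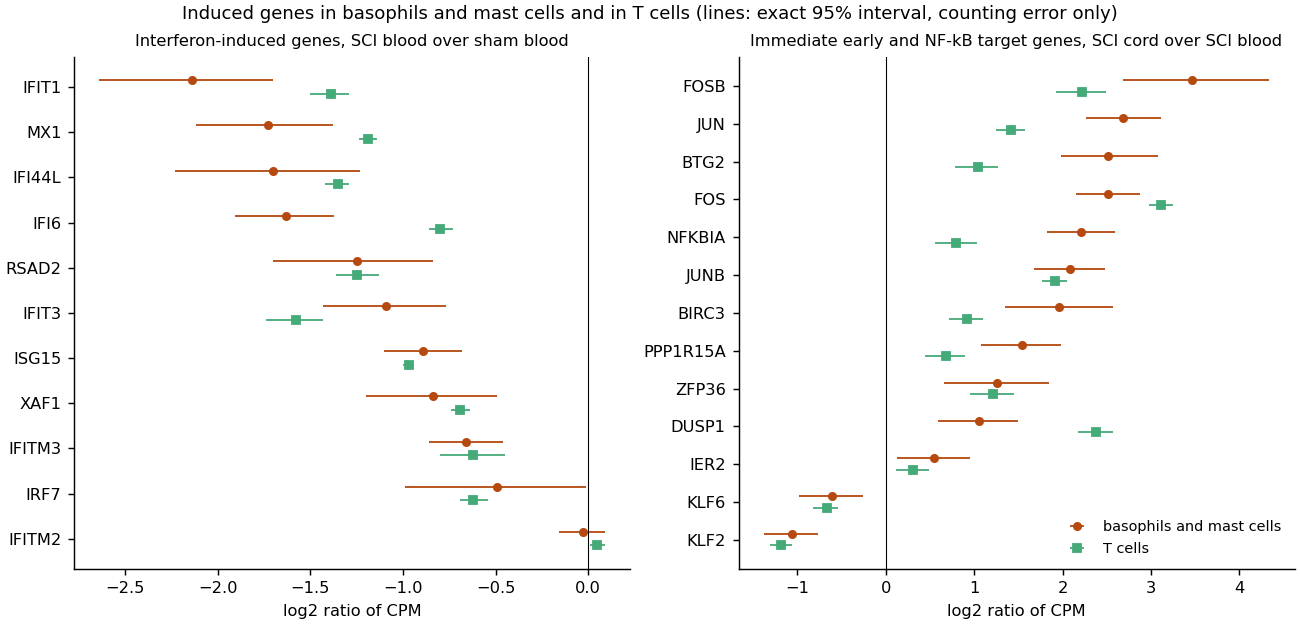
Log2 ratio of CPM with its exact 95% interval for 11 interferon-induced genes in SCI over sham blood (left) and 13 immediate early and NF-kB target genes in SCI cord over SCI blood (right), in basophils and mast cells (circles) and in T cells of the same libraries (squares). The interferon-induced genes lie below 0 in both cell types, IFITM2 excepted, and the immediate early genes lie above 0 in both, KLF2 and KLF6 excepted.

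Several granule, protease and eicosanoid genes were higher in the cord library. CPA3 was at 1117 CPM in SCI blood and 4021 CPM in cord, a log2 ratio of 1.85 (1.65 to 2.04), and of 1.24 (1.03 to 1.44) within protease-high cells. TPSAB1 was at 2502 and 5956 CPM (1.25, 1.11 to 1.40), and at 0.54 (0.39 to 0.68) within protease-high cells. CTSG was at 3271 and 5432 CPM (0.73, 0.59 to 0.87), and within protease-high cells at 0.02 (-0.13 to 0.16), an interval that included 0. TPSAB1 and CTSG were genes of the cut, so their ratios within that range are descriptions only. Mean depth of protease-high cells had a log2 ratio of 0.83 in cord over SCI blood. SRGN was at 3448 and 7704 CPM (1.16, 1.03 to 1.29), CTSD at 879 and 1655 CPM (0.91, 0.64 to 1.18), and the lysosomal carboxypeptidase CTSA at 65.1 and 234 CPM (1.85, 0.99 to 2.69). These ratios are over all cells, and CTSD was higher in protease-high than in protease-low cells of each blood library. The part of the larger protease-high share of cord in them was not tested. Of 14 measured granule and lysosome genes 12 lay above 0 (42.7% of all genes did) and 3 were at least 2-fold higher (5.67% of all genes). The median was 0.70, against 1.13 in T cells.

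LTC4S was at 428 CPM in SCI blood and 1272 CPM in cord, a log2 ratio of 1.57 (1.23 to 1.90), and of 1.10 (0.75 to 1.45) within protease-high cells. HPGD was at 3253 and 7611 CPM (1.23, 1.10 to 1.35, and 0.65, 0.52 to 0.78, within protease-high cells), with a T cell ratio of -0.70. The prostaglandin synthase PTGS1, the first enzyme of prostaglandin synthesis, was at 148 and 299 CPM (1.03, 0.35 to 1.66). The 5-lipoxygenase ALOX5 was at 333 and 206 CPM (-0.67, -1.42 to -0.04) and its activating protein ALOX5AP at 1493 and 2207 CPM (0.57, 0.34 to 0.78). HDC, the histamine enzyme, was at 1966 and 1730 CPM (-0.18, -0.42 to 0.05), while the histamine transporter SLC18A2 was at 423 and 748 CPM (0.83, 0.42 to 1.21). The interval of HDC thus included 0, while of the arachidonic acid pathway genes named here only ALOX5 was lower in cord.

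Cytokine genes of the cord cells differed in both directions. OSM was at 115 CPM in SCI blood and 365 CPM in cord (1.67, 1.01 to 2.31), CSF1, the macrophage growth factor, at 77.6 and 206 CPM (1.42, 0.55 to 2.24), and CCL23 at 1235 and 2403 CPM (0.96, 0.74 to 1.18). CCL3 was at 228 and 757 CPM, with 71 of its 81 cord UMIs in 1 cell and 93.5 CPM without it. IL13 was at 160 CPM in SCI blood and 9.35 CPM in cord, 1 UMI (-3.53, -9.43 to -1.57), and CCL5 at 421 and 46.8 CPM (-3.04, -4.81 to -1.92). IL13 and CCL5 were genes of protease-low cells in blood, of which cord held 2. In T cells the cytokine list had a median of 3.94, against 0.32 in these cells, or -0.37 without the deepest 10% of cells.

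Several receptors for homing and adhesion were lower in the cord library and others were higher. CCR3 was at 543 CPM in SCI blood and 56.1 CPM in cord (-3.16, -4.74 to -2.13), and had a UMI in 65 of 115 and 2 of 15 cells. SELPLG, the P-selectin ligand, was at 356 and 122 CPM (-1.50, -2.49 to -0.73), and the integrin subunit ITGB7 at 253 and 74.8 CPM (-1.68, -3.01 to -0.72). The T cell ratios of SELPLG and ITGB7 were -0.60 and -0.61. CCR2 had 22 UMIs in blood and none in cord. The integrin subunits ITGB1 (90.2 and 187 CPM, 1.07, 0.19 to 1.88) and ITGB2 (140 and 299 CPM, 1.10, 0.42 to 1.74) were higher in cord. Of 17 measured genes of the list 2 were at least 2-fold higher (5.67% of all genes) and 5 lower (11.6% of all genes), with a median of -0.55. Within protease-high cells 0 of 13 were higher and 2, ITGB7 and SELPLG, were lower, with a median of -0.16, and 9.79% of all genes were lower there. The inhibitory IgG receptor FCGR2B was also lower, at 413 CPM in blood and 140 CPM in cord (-1.52, -2.43 to -0.80), and at -0.80 (-2.19 to 0.28) within protease-high cells.

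Within protease-high cells alone, 135 genes (5.22%) were at least 2-fold higher and 253 (9.79%) lower in cord of 2584 measured, 15.0% together. FOSB (502 CPM in cord against 28.8 CPM in blood), FOS and JUN were among the 10 highest. CLU, the secreted chaperone clusterin, was at 1725 and 428 CPM (2.01, 1.63 to 2.40), with 79 of the 165 UMIs of all cord cells in 1 cell. LMNA, lamin A/C of the nuclear envelope, was at 360 CPM in cord and 1961 CPM in blood (-2.42, -3.00 to -1.93), and the tubulin gene TUBB at 87.3 and 481 CPM (-2.38). In blood, 191 of the 661 LMNA UMIs were in 1 cell, without which all cells stood at 1177 CPM.

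**Figure D5:**
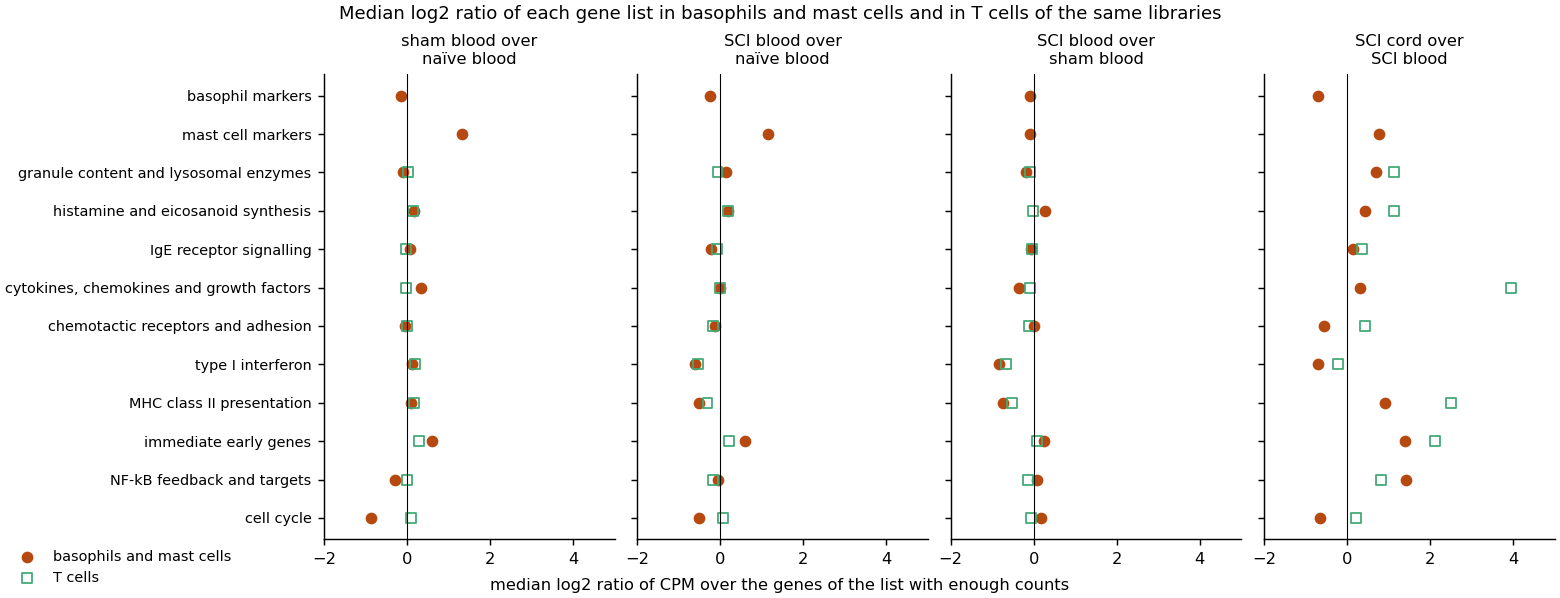
Median log2 ratio of CPM over the measured genes of 12 gene lists (y axis) in each of the 4 comparisons (panels), in basophils and mast cells (filled circles) and in T cells (open squares, not drawn for the lists of basophil and mast cell markers). The mast cell markers stand at 1.33 and 1.14 in the comparisons of operated with naïve blood, the type I interferon list at -0.84 in SCI over sham blood, and the immediate early and NF-kB lists at 1.40 and 1.41 in cord over SCI blood.

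The signalling genes of the IgE receptor were close to 0 in the 4 comparisons. The list of 22 genes had a median of 0.07 in sham over naïve blood, -0.22 in SCI over naïve blood, -0.07 in SCI over sham blood and 0.15 in cord over SCI blood. FCER1G, the gamma chain, was at 1856, 2595, 2166 and 2814 CPM in naïve blood, sham blood, SCI blood and SCI cord, and the kinase BTK at 679, 714, 724 and 1029 CPM (cord over SCI blood 0.51, 0.18 to 0.83). LYN, the kinase that phosphorylates the receptor, was at 69.2, 93.1, 57.6 and 131 CPM, and it was the only gene of the list at least 2-fold higher in cord (1.20, 0.11 to 2.20).

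Of the measured receptors for the growth factors supplied by the transgenes, none was 2-fold apart in any of the 4 comparisons. CSF2RB, the chain shared by the receptors for IL-3, IL-5 and GM-CSF, was at 818, 765, 573 and 711 CPM (SCI over sham blood -0.41, -0.66 to -0.17), IL3RA at 238, 220, 200 and 103 CPM (cord over SCI blood -0.91, -2.02 to -0.05), and KIT at 247, 328, 346 and 346 CPM. IL1RL1, the receptor for the alarmin IL-33, was at 277, 310, 348 and 337 CPM, and all intervals of its 4 ratios included 0. IL5RA was at 121, 111, 123 and 28.1 CPM, with a log2 ratio of -1.92 (-4.46 to -0.50) in cord over SCI blood. The list of 22 cytokine receptors had medians of -0.04, -0.10, -0.11 and 0.18.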

How the data were processed

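The deposited matrices hold counts of UMIs per gene and barcode. Per the labels and the submitters' processing notes, the authors made them with Cell Ranger 3.1.0 against human (hg38) and mouse (mm10) genomes together, and they list 33538 human and 31053 mouse genes. UMIs of the 313 cells were summed per library and scaled to CPM without ribosomal and mitochondrial genes. Log2 ratios were taken with 0.5 added to each count, for genes whose counts in the pair of libraries came to 20 or more, with a 95% interval from the exact conditional binomial distribution. No test was made, since each group had 1 library. For shares of cells with a UMI, each cell was thinned to 1000 UMIs. T cells had at least 2 UMIs over the CD3 genes and none of MS4A1. Named genes were those with the 10 largest and 10 smallest log2 ratios of a comparison, provided that both libraries together held 40 counts or more and that 1 of them reached 100 CPM, the 7 genes of the rule, members of the gene lists (13 of markers and 22 of functions), and the 15 genes that stood out most from other human barcodes. The rule, the lists and the named genes were chosen with earlier results of these data known. Of 493 listed genes, 2 had no match. Doublets were called in the blood libraries only, with Scrublet in scanpy 1.11.5, and kept. The code, run with Python 3.11.15 and numpy 2.4.6, were tested on simulated data, and edgeR 4.0.16 and DESeq2 1.42.0 supplied only alternative scaling factors. No human sequence was used here.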

Additional observations from a re-analysis of the deposited data

How the results depend on the processing

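One library per condition, 15 cord cells and 127 human cord barcodes limit these results, and rare transcripts were not detectable at this depth. No paired analysis was possible because each group had 1 library. A gene list median was said to move when it left the range between the medians of its genes' lower and upper interval bounds. That range is about as wide as the interval of a single gene, so it is a loose limit for a median. Of 847 alternative gene list medians 12 moved and 77 had the other sign, 69 of them with a reported median under 0.25 in size. The other 8 were the 2 cell cycle medians given next in sham over naïve blood, that of the cell cycle in SCI over naïve blood (-0.52, and 0.12 without the deepest 10% of cells) and in cord (-0.65, and 0.01 without barcodes marked as doublets), NF-kB in sham over naïve blood (-0.28, and 0.30 with at least 50 counts), eicosanoid synthesis in SCI over sham blood (0.27, and -0.01 without the deepest 10%), and cytokines in SCI over sham blood (-0.36, and 0.13 in protease-low cells) and in cord (0.32, and -0.37 without the deepest 10%). Of the medians at least 2-fold from 0, 0 changed sign, and of 1199 alternative values of named genes 53 moved and 4 reversed. Protease-low cells alone were not run for cord, which held 2. The cause of these moves was not tested unless the alternative itself gives it.

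With CD3 and MS4A1 UMIs allowed, basophils and mast cells of naïve, sham and SCI blood made up 1.52%, 2.59% and 2.28% of human barcodes, and the cell cycle list had a median of 0.05 in sham over naïve and -0.94 in SCI over sham blood. That list's median in sham over naïve blood was -0.88, and 0.16 without the deepest 10% of cells. A cut at 1 protease UMI made 62.9% of sham cells protease-high. Without thinning, TPSAB1 was found in 49.5% of sham cells, CCR3 in 60.3%, 55.2% and 56.5% of naïve, sham and SCI blood cells, and CLC in 58.1% and 56.5% of sham and SCI blood cells. At 2000 UMIs CCR3 was found in 50.7%, 43.1%, 45.9% and 0.0% of naïve, sham, SCI blood and cord cells (14 cord cells, so up to 23.2%).

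Genes at least 2-fold apart numbered 329, 363, 288 and 724 in the order sham over naïve, SCI over naïve, SCI over sham and cord over SCI blood. They numbered 48, 74, 50 and 209 among genes with at least 50 counts and 3121, 3379, 4022 and 3917 with at least 1. With protease-low cells only there were 228 in SCI over naïve blood, with protease-high cells only 388 in cord, and with each cell weighted equally 1116 in cord. With size factors the split was 179 higher and 140 lower in sham over naïve and 207 and 147 in SCI over naïve blood.

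With protease-high cells only, the median in sham over naïve blood was 0.34 for mast cell markers, 1.17 for cytokines and 1.14 for immediate early genes, that in SCI over naïve blood 0.18 for mast cell markers, that in SCI over sham blood -0.46 for basophil markers, and that in cord 1.21 for cytokines (0.96 with genes of at least 1 count). With protease-low cells only, the granule list had a median of -0.54 in sham over naïve and the basophil markers of 0.40 in SCI over naïve blood. In protease-low cells the log2 ratio of CCL3 was -0.34 in sham over naïve and that of KRT19 -0.29 in SCI over sham blood. Without the top cell of each library CCL4L2 was at -0.90 in SCI over naïve and -0.85 in SCI over sham blood.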

Other observations

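The gene lists of mitochondrial respiration, heat shock and degranulation were measured but belong to none of the groups above. In cord over SCI blood, 24 of the 30 nuclear genes of oxidative phosphorylation lay above 0 (42.7% of all genes did), with a median log2 ratio of 0.44. In T cells the median was 0.22 with 24 of 30 above 0 (53.4% of all genes). The heat shock proteins had a median of -0.47 in cord and -0.07 in T cells, and the 14 measured genes of the degranulation machinery a median of -0.46, against 0.37 in T cells. Between the blood libraries each of these 3 lists had a median between -0.23 and 0.19. The 7 measured cell cycle genes were all below 0 in cord, where 42.7% of all genes lay above 0. Their median was -0.65 (0.01 without barcodes marked as doublets), and STMN1, TUBA1B and TYMS were at least 2-fold lower, as were 11.6% of all genes.

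The deepest cell of naïve blood had 25999 UMIs, against 8665 in the next. It was marked by the doublet caller. It held 83 of the 83 EPX, 23 of the 23 RNASE2 and 12 of the 12 PRG2 UMIs of that library's basophils and mast cells, all genes of eosinophil granules, with 819 of 1801 CLC and 834 of 1710 SRGN UMIs and none of MS4A2. It also held 22 of the 28 UMIs of RRM2 and 62 of the 120 of HIST1H4C, genes of DNA replication.

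Another naïve cell with 7377 UMIs, not marked as a doublet, held 118 of 118 S100A8, 271 of 286 S100A9 and 28 of 28 FCN1 UMIs, which are genes of monocytes and neutrophils, beside 17 UMIs of FCER1A and 2 of MS4A2.

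Of the barcodes left out for a CD3 or MS4A1 UMI, 9 of 22 in naïve blood, 14 of 22 in sham blood, 11 of 27 in SCI blood and 1 of 3 in cord had only 1 such UMI. Their median depth was 3900, 8156, 5675 and 17039 UMIs, and 3, 10, 9 and 2 were protease-high. In naïve, sham and SCI blood 7, 6 and 9 were marked as doublets, and cord barcodes were not screened.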
